A study of Mus musculus with 21 samples.

Results

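Collagen genes encode the triple-helical proteins that form fibrils, basement membranes and pericellular networks outside cells. They were taken as every gene row of the count table whose symbol has the form Col, number, a, number, and whose summed count over all libraries was at least 30. All 44 collagen rows met that minimum, out of 22294 genes that met it in the whole series. The tissue was the ventral pons, the brainstem block around the facial motor nucleus, from C57BL/6 mice of the CX3CR1GFP/wt line, in which green fluorescent protein replaces 1 copy of a chemokine receptor gene of microglia. This genotype was shared by all groups, controls included. The facial nerve was cut on the right at 8 weeks of age, where it leaves the skull, and polyadenylated RNA was sequenced from 7 groups of 3 libraries. These were the left pons of mice without an operation (day 0, age 8 weeks), and the right (lesion) and left (contralateral) pons of operated mice at day 7 (9 weeks), day 14 (10 weeks) and day 30 (12 weeks). Lesion and right side were never separated, nor were day and age. The column headers name lane 1 for days 0 and 7, lane 2 for day 14 and lane 3 for day 30, and 2 index sequences occur in a day 0 and a day 7 library of lane 1, so libraries of days 0 and 7 cannot all have come from 1 lane of 1 run. Day and sequencing run cannot be told apart. The nerve cut damages axons outside the brain, and the block holds other nuclei as well as the facial nucleus. In such bulk tissue fewer cells of a type and less RNA per cell cannot be told apart.

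Collagen chains are assembled as trimers in the endoplasmic reticulum, where hydroxylases and the chaperone Serpinh1 act on them, and are trimmed and cross-linked outside the cell by proteases and lysyl oxidases. The central nervous system holds little fibrillar collagen. Types I, III and V there are known mainly from fibroblasts of the meninges and vessels, type IV from the basement membranes of endothelium, pericytes and astrocyte endfeet, and several minor collagens, such as Col25a1, from neurons. Injury of the brain or spinal cord itself is known to raise fibrillar and basement membrane collagens in scar tissue, whereas cutting a peripheral nerve leaves the tissue around the motor neurons in place.

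The summed counts were 35874913 to 41448945 in the day 0 libraries and 17358868 to 29827291 in the other 18. Collagen genes made up 0.0554% to 0.0869% of the counts of a library, and 43 of the 44 were counted in every library. The exception was Col10a1, a network collagen of growth cartilage, with 47 counts in all. In CPM (counts relative to the library total, scaled by edgeR's TMM factors) 22 collagen genes averaged at least 10, 16 averaged 1 to 10, 5 averaged 0.1 to 1 and Col10a1 0.0889. Chat, the acetylcholine-synthesising enzyme of motor neurons, was present in every library, at 9.94 to 42.4 CPM. The injury genes Sprr1a and Atf3 were high in every library labelled lesion, at 35.1 to 295 and 10.1 to 96.0 CPM, and at no more than 1.06 and 1.86 CPM in the others. One library stood apart. Day 7 lesion replicate 3 held 4644 CPM summed over 9 choroid plexus markers, against 15.5 to 967 CPM in the other 20, and results that rest on it are given with and without it.

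Per kilobase of the exon length given in the count table, which allows levels of different genes to be compared, Col4a2 led at 10.1 CPM per kilobase on average over the 21 libraries. It was followed by Col11a2 at 9.53, Col16a1 at 8.66 and Col4a1 at 7.76. Col4a1 and Col4a2 are the chains of the common basement membrane collagen, Col11a2 is a fibrillar chain best known from cartilage, and Col16a1 is a fibril-associated collagen (FACIT). The spreads of the leading genes overlapped: Col4a2 ranged from 8.45 to 13.7, Col11a2 from 7.50 to 12.0 and Col16a1 from 6.80 to 10.5 CPM per kilobase, so neighbours in this order are not set apart by it. The FACIT chains Col9a3 at 6.04 and Col9a2 at 5.58 came next, then the chains of type I collagen, Col1a2 at 5.43 and Col1a1 at 4.66, and the type III chain Col3a1 lay lower at 1.92. As shares of the summed level per kilobase, the 11 fibrillar genes made up 33.3%, the 9 FACIT genes 24.4% and the 6 type IV genes 21.4%. The 6 type VI genes, which form beaded microfilaments, made up 7.16%, the 4 transmembrane genes 5.54%, and the multiplexins Col15a1 and Col18a1 of vascular basement membranes 3.99%. The 4 network and anchoring genes made up 3.30% on average but 10.3% in day 7 lesion replicate 3.

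**Figure D1:**
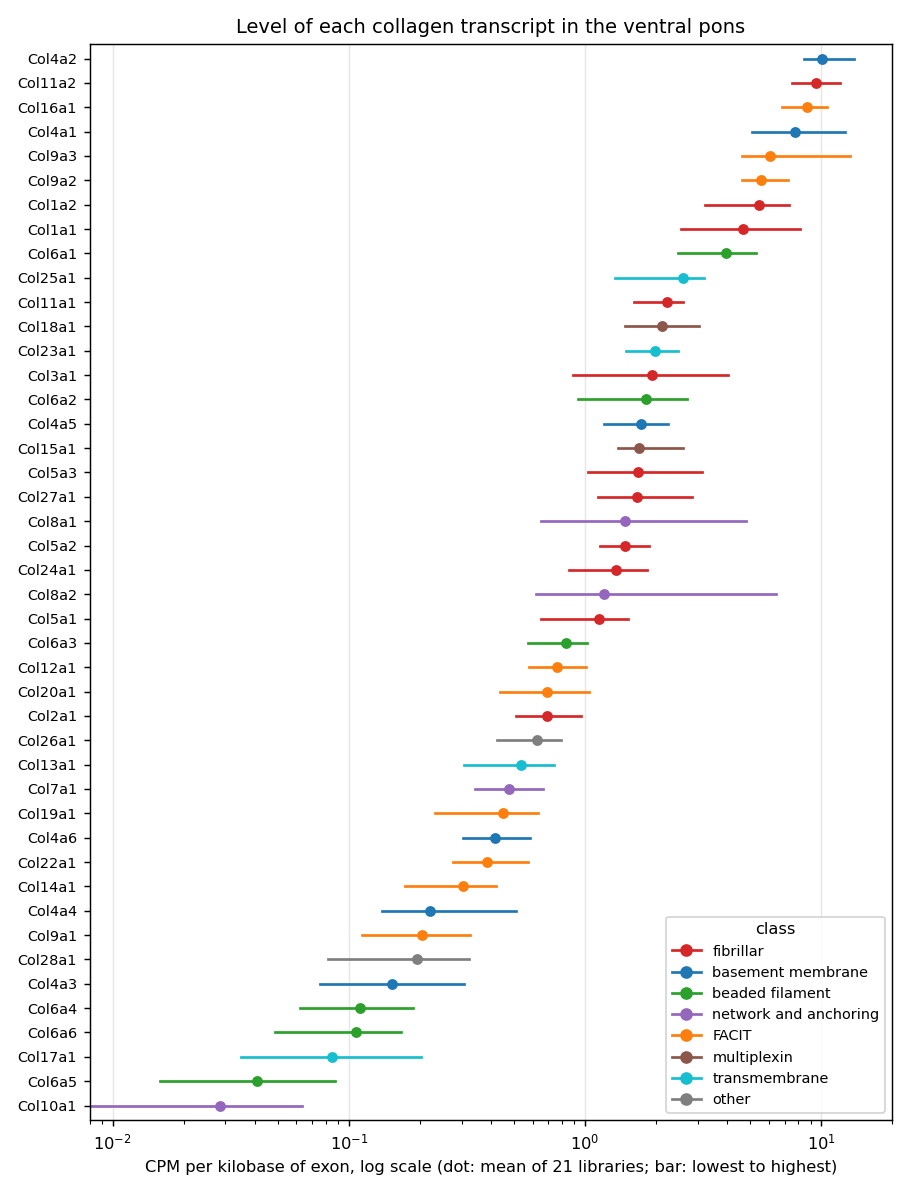
Level of each of the 44 collagen genes in CPM per kilobase of exon (horizontal log axis), with dots for the mean of the 21 libraries and bars from the lowest to the highest library, coloured by structural class. Levels run from 10.1 for Col4a2 to 0.0284 for Col10a1, whose bar runs off the left edge because some libraries had no count. Long bars to the right mark Col8a1, Col8a2 and Col9a3.

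Collagen genes lie on 15 chromosomes in GENCODE M21 (GRCm38), and all 44 were found by symbol. Some lie close together, such as Col6a4, Col6a5 and Col6a6 on chromosome 9, or Col6a1 and Col6a2 on chromosome 10, and the type IV genes sit in head-to-head pairs. The start sites of Col4a1 (chr8:11198423-11312826, minus strand) and Col4a2 (chr8:11312805-11449287, plus strand) are 21 bases apart and the transcripts overlap there, those of Col4a4 and Col4a3 are 72 bases apart on chromosome 1, and those of Col4a6 and Col4a5 are 1309 bases apart on chromosome X. Exon bases are shared with a gene on the same strand for 3 collagen genes and lie opposite another gene for 10, which matters because the strand setting of the authors' counting is not given in the sources used here. Among the genes described below, Col4a1 has 22 bases opposite Col4a2 and Col5a1 has 212 bases opposite other transcripts, while Col5a3 has none.

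The 250 bases before the RefSeq start (GRCm38.p6) are shown for the pair of type V chains that moved in opposite directions after the lesion, Col5a3 (chr9:20815068-20815317, minus strand) and Col5a1 (chr2:27886175-27886424, plus strand), and for genes that fell against day 0, Col3a1 (chr1:45311288-45311537, plus strand) and Col15a1 (chr4:47207762-47208011, plus strand). Each is printed 5′ to 3′ on the strand of its gene. None of these windows overlaps an annotated exon. Capitals mark matches, on either strand, to the GC box GGGCGG, the CCAAT box CCAAT, the TATA box TATAAA, the AP-1 motif TGANTCA or the cAMP response element TGACGTCA.
Col5a3: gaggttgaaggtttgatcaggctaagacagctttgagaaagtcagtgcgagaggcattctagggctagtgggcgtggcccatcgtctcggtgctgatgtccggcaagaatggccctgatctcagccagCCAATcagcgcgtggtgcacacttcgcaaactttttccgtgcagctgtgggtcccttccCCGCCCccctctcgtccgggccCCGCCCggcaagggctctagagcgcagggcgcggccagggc
Col5a1: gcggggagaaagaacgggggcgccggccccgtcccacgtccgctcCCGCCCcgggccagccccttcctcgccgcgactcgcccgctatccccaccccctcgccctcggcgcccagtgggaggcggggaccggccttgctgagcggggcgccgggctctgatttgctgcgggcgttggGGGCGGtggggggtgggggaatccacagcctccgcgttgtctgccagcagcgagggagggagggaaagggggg
Col3a1: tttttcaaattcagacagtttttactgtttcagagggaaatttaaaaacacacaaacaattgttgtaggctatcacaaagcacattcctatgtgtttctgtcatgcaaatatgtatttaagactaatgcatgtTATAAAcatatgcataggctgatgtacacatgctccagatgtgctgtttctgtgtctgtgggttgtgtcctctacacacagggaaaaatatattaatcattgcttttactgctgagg
Col15a1: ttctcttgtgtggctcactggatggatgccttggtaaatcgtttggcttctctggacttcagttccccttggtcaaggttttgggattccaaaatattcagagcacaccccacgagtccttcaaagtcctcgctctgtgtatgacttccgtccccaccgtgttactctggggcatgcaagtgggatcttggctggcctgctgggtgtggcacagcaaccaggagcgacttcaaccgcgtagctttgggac
The Col5a3 window holds 2 GC boxes, 41 and 63 bases before the start, and a CCAAT box 122 bases before it. The Col5a1 window holds 2 GC boxes, 73 and 205 bases before the start, and no CCAAT match. Col3a1 has a TATA box match 117 bases before its start, and Col15a1 holds none of these letters. RefSeq entries were found for 35 of the 44 genes, with 38 promoters. A GC box was present in 57.9% of these and in 32.7% of all 32851 promoters, a TATA box in 13.2% and 12.4%, a CCAAT box in 34.2% and 33.8%, and an AP-1 motif in 2.63% and 6.75%. These are matches of letters and not sites of binding.

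The first comparison, lesion against contralateral pons on each day, asks which collagen genes a facial nerve cut changed on its own side. Col5a3, the third chain of the fibril-regulating type V collagen, and Col4a1 were higher on the lesion side at days 7 and 14, and Col5a1, the main type V chain, was lower at day 14. No other collagen gene passed this test on any day. A fit that matched libraries of the same number, the replicate block described below, called 7 at day 14. At day 7, 2 of 44 were higher and 0 lower, where 1.65% of all genes tested passed, 1.56% higher and 0.0942% lower. At day 14, 2 were higher and 1 lower, beside 3.88% of all genes (2.58% and 1.31%), and at day 30 none passed, beside 1.16% (1.04% and 0.121%). At an unadjusted p under 0.05 were 5, 9 and 4 of the 44 on the 3 days, DESeq2 called 2, 3 and 0, and limma-voom 1, 3 and 0. The median log2 difference over the 44 genes was 0.01, -0.09 and 0.06 on the 3 days, and over all genes -0.01, 0.00011 and 0.0025. All lesion libraries lay above all contralateral ones for 6, 2 and 1 of the 44, and below them for 1, 8 and 1. Among all genes the shares were 7.26%, 10.7% and 9.71% above and 5.26%, 10.5% and 8.28% below, so absence of overlap alone is common.

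Col5a3 stood at 11.0, 13.0 and 13.8 CPM in the day 0 libraries. At day 7 it was at 12.6, 14.0 and 10.0 CPM on the lesion side and at 7.13, 7.02 and 8.42 on the contralateral side. All lesion libraries lay above all contralateral ones, and they overlapped those of day 0. The difference was 0.69 ± 0.16 on the log2 scale (SE, n = 3 and 3; adjusted p = 0.016, edgeR). At day 14 the lesion libraries held 15.4, 21.2 and 17.4 CPM and the contralateral ones 10.1, 7.48 and 8.54. Again no values overlapped, and now the lesion libraries also lay above all those of day 0. The side difference was 1.05 ± 0.15 (adjusted p = 5.2e-05), a 2.07-fold higher level. At day 30 the lesion libraries held 11.6, 14.6 and 10.1 CPM against 9.01, 8.78 and 7.61. The groups still did not overlap, and the difference of 0.52 ± 0.15 did not pass the test (adjusted p = 0.14). The day 7 call was lost without lesion replicate 1, lesion replicate 2, contralateral replicate 1 or contralateral replicate 2 (adjusted p = 0.078, 0.13, 0.087 and 0.1), and with limma-voom (0.056), while the day 14 call was made in all 13 alternative settings.

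Against the unoperated pons, it was the contralateral side on which Col5a3 was lower. The contralateral values fell by 0.75 ± 0.15 at day 7, 0.54 ± 0.15 at day 14 and 0.58 ± 0.15 at day 30 (adjusted p = 0.0014, 0.014 and 0.0082). On the lesion side it was above day 0 at day 14, by 0.52 ± 0.14 (adjusted p = 0.011), and the differences at days 7 and 30 were -0.06 and -0.06 (adjusted p = 0.86 and 0.81). All of these comparisons share the same day 0 libraries. The day 14 contralateral call did not hold without day 0 replicate 2 or 3 or contralateral replicate 2 or 3 (adjusted p = 0.052, 0.064, 0.09 and 0.054), the day 14 lesion call without day 0 replicate 1 or lesion replicate 2 (0.058 and 0.084), and the day 30 call without contralateral replicate 3 (0.062).

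Col5a1 moved the other way. It was at 5.52, 6.55 and 7.26 CPM in the day 14 lesion libraries and at 8.51, 11.3 and 12.5 in the contralateral ones. All lesion values were below all contralateral values and below those of day 0 (10.3, 12.3 and 11.9 CPM). The difference between sides was -0.73 ± 0.15 (adjusted p = 0.0026), and it passed in all 13 alternatives. At day 7 the sides overlapped, with 9.12, 9.71 and 10.9 CPM against 8.31, 13.0 and 10.7, and at day 30 the lesion libraries (8.48, 8.63 and 7.29) were below the contralateral ones (10.0, 10.7 and 10.5) by 0.35 ± 0.14 (adjusted p = 0.49). The remaining type V chain, Col5a2, passed on no day. The level of Col5a3 per kilobase over that of Col5a1 was 3.50 ± 0.530 (SD, n = 3) on the lesion side at day 14 and 1.05 ± 0.367 on the other. At day 0 that ratio was 1.37 ± 0.0721, and it ran from 2.98 to 4.04 in the day 14 lesion libraries, above every other group's highest value. The sides did not overlap on the other days either. The lowest lesion ratio was above the highest contralateral one at day 7 (1.14 and 1.07) and at day 30 (1.71 and 1.12). The day 14 ratio combines genes already called in opposite directions, and these ratios were not tested.

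Col4a1 was at 59.7, 61.1 and 59.1 CPM in the lesion pons at day 7 and at 45.0, 52.3 and 46.6 in the contralateral pons, and the groups did not overlap. The difference was 0.32 ± 0.07 (adjusted p = 0.017), or 1.25-fold. At day 14 the lesion libraries held 57.4, 58.8 and 56.0 CPM against 49.5, 44.7 and 42.8, a difference of 0.33 ± 0.07 (adjusted p = 0.0094). At day 30 they held 43.5, 44.3 and 40.6 against 41.7, 34.7 and 36.9, where the sides overlapped and 0.18 ± 0.08 did not pass (adjusted p = 0.53). At day 7 the call was lost without lesion replicate 1 or 2 or contralateral replicate 1 or 3 (adjusted p = 0.057, 0.073, 0.13 and 0.1), and at day 14 without contralateral replicate 2 or 3 (0.057 and 0.075). Its head-to-head neighbour Col4a2 did not pass on any day. Its differences were 0.12 ± 0.07, 0.08 ± 0.07 and 0.06 ± 0.07, and whether they differ from those of Col4a1 was not tested. The level of Col4a1 over that of Col4a2, per kilobase, was 0.889 ± 0.0181 in the day 7 lesion pons and 0.772 ± 0.0596 in the contralateral pons, and 0.817 ± 0.0783 and 0.679 ± 0.0114 at day 14. On both days the lowest lesion ratio (0.870 and 0.726) was above the highest contralateral one (0.840 and 0.690). The ratios did not overlap at day 30 either, at 0.671 to 0.683 in the lesion and 0.603 to 0.637 in the contralateral pons. These ratios were not tested.

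Among markers of the cells known for these chains, none of 9 endothelial, 9 mural, 9 fibroblast or 4 astrocyte markers passed between sides on any day. At day 7 the summed endothelial markers were at 392 to 433 CPM on the lesion side and 384 to 445 on the other, and the mural ones at 335 to 383 and 326 to 347. At day 14 the endothelial sum was lower on the lesion side, at 367 to 398 CPM against 415 to 429, and the sum of the astrocyte markers higher, at 1501 to 1701 against 1282 to 1322. The fibroblast sum was then 248 to 413 CPM on the lesion side and 224 to 523 on the other. Microglial markers were higher on the lesion side, 5, 4 and 3 of 5 on the 3 days, with sums of 172 to 212 CPM in the lesion and 107 to 135 in the contralateral libraries. Over all genes 1.56%, 2.58% and 1.04% were higher, and 0.0942%, 1.31% and 0.121% lower, on the 3 days. Of 8 hindbrain neuron markers 0, 3 and 1 were lower. The part of these cells in the collagen results was not tested. All the defining markers of each of these lists were counted in every library.

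**Figure D2:**
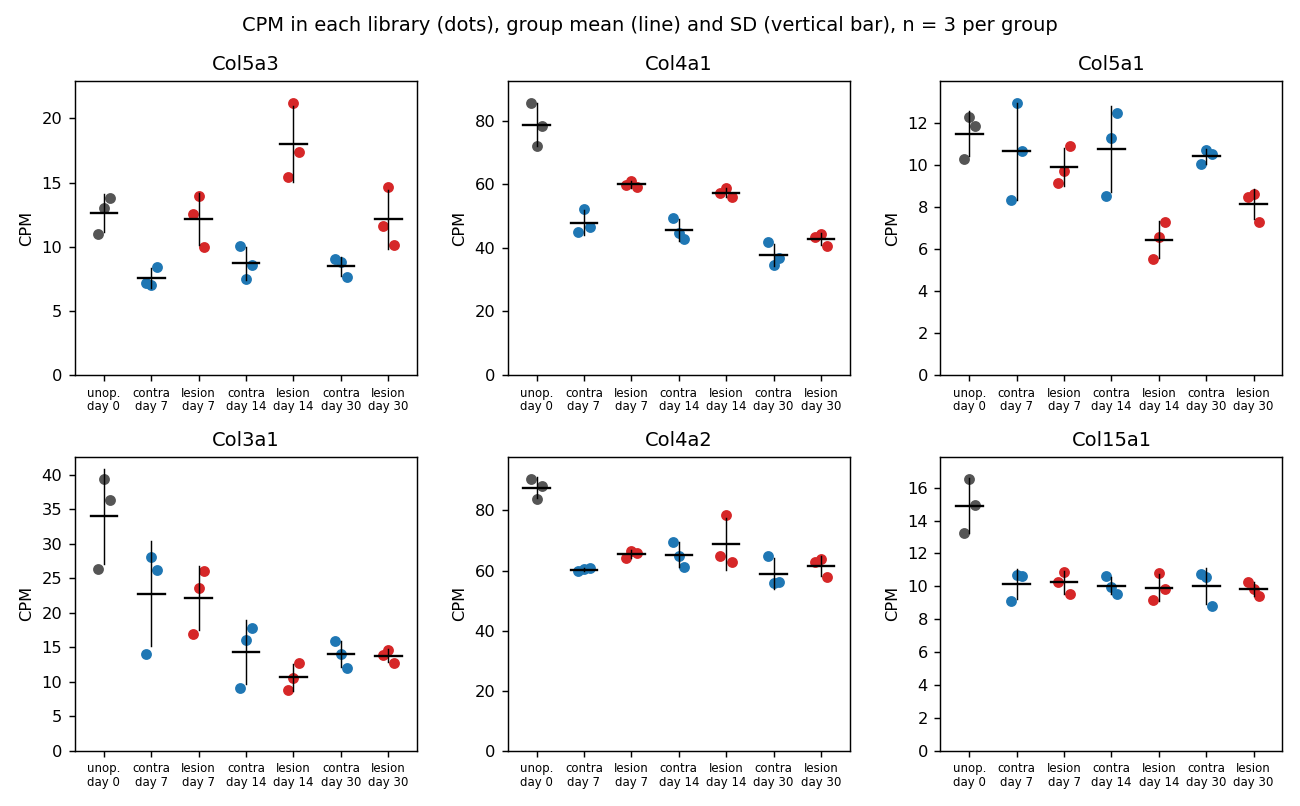
CPM of 6 collagen genes in each library (dots), with the group mean (horizontal line) and SD (vertical bar), n = 3 per group, in grey for the unoperated, blue for the contralateral and red for the lesion pons. Col5a3 reached 15.4 to 21.2 CPM in the day 14 lesion libraries, Col5a1 was at 5.52 to 7.26 there, and Col15a1 and Col4a2 were lower than at day 0 in all operated groups.

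Whether the side difference itself changed between days was tested by interaction. No collagen gene passed between any pair of days in edgeR, DESeq2 or limma-voom, and 5, 0 and 4 of the 44 had an unadjusted p under 0.05 for day 14 minus 7, day 30 minus 7 and day 30 minus 14. Over all genes 0, 0.0269% and 0.0807% were lower and none higher. For Col5a3 the day 30 difference was below that of day 14 by 0.53 ± 0.21 (adjusted p = 0.24), and for Col5a1 the day 14 difference was below that of day 7 by 0.63 ± 0.20 (adjusted p = 0.82). A change of the lesion effect with time was thus not detectable for these genes.

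**Figure D3:**
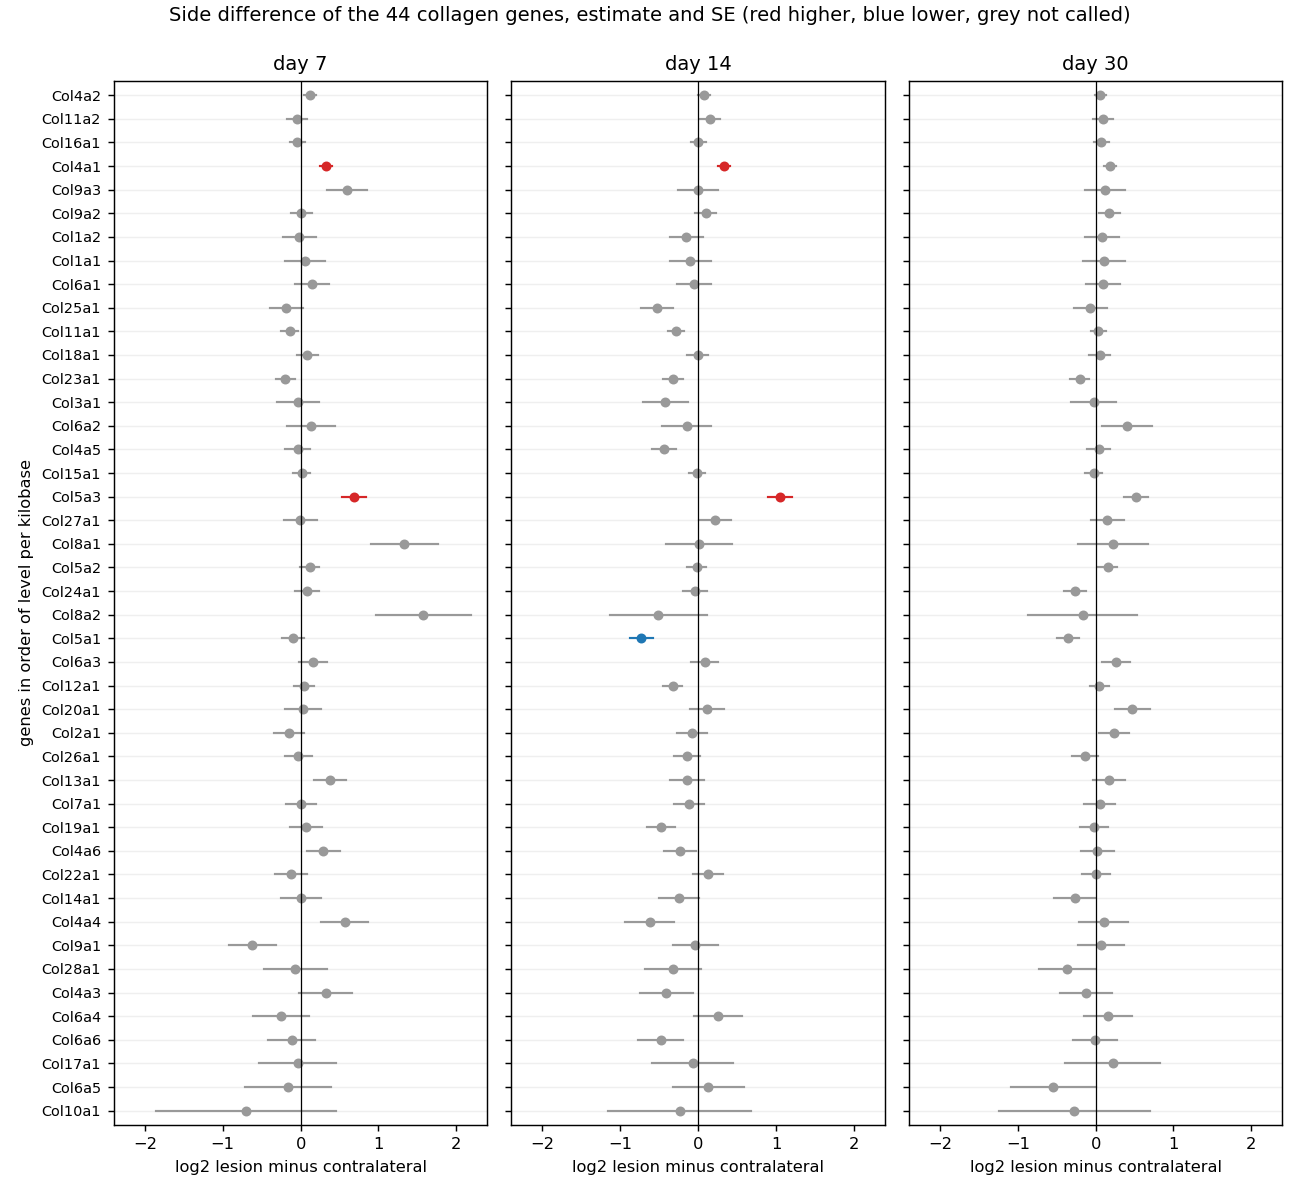
Log2 difference of lesion minus contralateral pons (horizontal axis, dots) with its SE (bars) for the 44 collagen genes in order of level, at days 7, 14 and 30. Red marks the higher genes Col5a3 and Col4a1, blue the lower gene Col5a1, and grey the genes that did not pass. Most dots lie close to 0, and Col8a1 and Col8a2 at day 7 have large estimates with wide errors.

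The 2 largest estimates at day 7, those of Col8a2 and Col8a1, and that of Col9a3 rested on 1 library. Col8a2, a short-chain network collagen, was at 28.8 CPM in lesion replicate 3, and at 4.16 and 4.33 CPM in its companions. Its partner Col8a1 was at 24.5 CPM there, beside 7.16 and 8.06, and the FACIT chain Col9a3 at 50.8 CPM beside 22.0 and 22.7. Each of these values was the highest of all 21 libraries, by 2.79-fold, 2.26-fold and 1.92-fold over the next. The choroid plexus transcript Ttr, which encodes transthyretin, was at 4353 CPM in the same library. The side differences were 1.58 ± 0.61, 1.33 ± 0.43 and 0.60 ± 0.25 (adjusted p = 0.48, 0.26 and 0.58), and without this library they were -0.0032, 0.51 and 0.074. The basement membrane chains Col4a3 and Col4a4 were also highest there, at 3.06 and 5.43 CPM against at most 2.07 and 3.11 elsewhere. In day 14 contralateral replicate 3, with the next highest Ttr at 878 CPM, Col8a1 was at 10.9, Col8a2 at 10.3 and Col9a3 at 26.5 CPM, each second among the libraries. The part of choroid plexus tissue in these values was not tested. Col4a1 and Col5a3, at 59.1 and 10.0 CPM, were lower in day 7 lesion replicate 3 than in its 2 companion libraries, and without it both were still called.

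**Figure D4:**
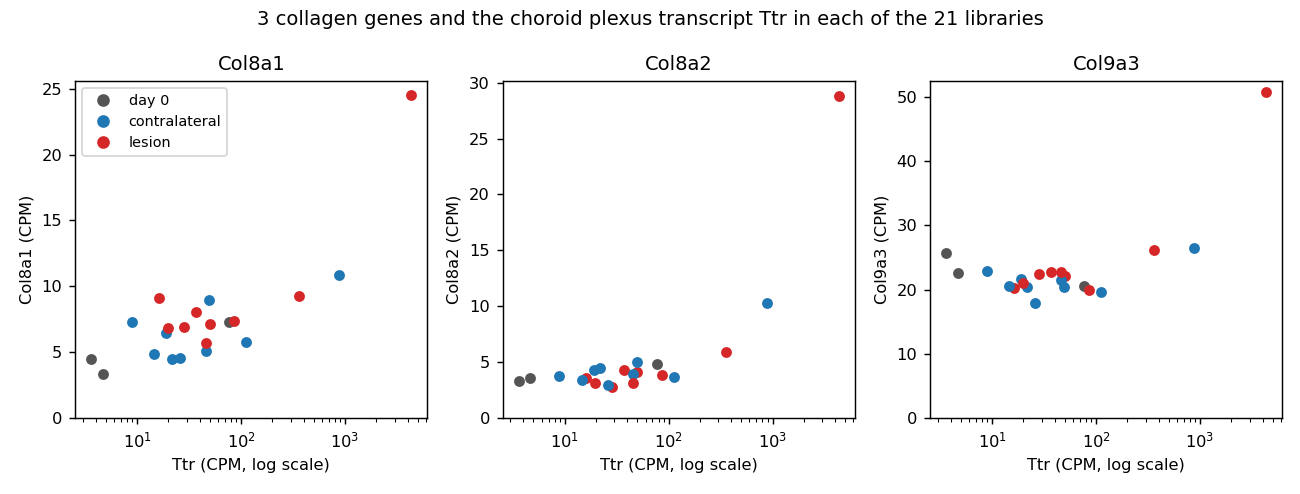
CPM of Col8a1, Col8a2 and Col9a3 (vertical axes) against CPM of Ttr (horizontal log axis) in each of the 21 libraries, grey for day 0, blue for contralateral and red for lesion. The single point at the upper right of each panel is day 7 lesion replicate 3, with Ttr at 4353 CPM.

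The other genes of the pathway were taken from fixed lists. Of 33 genes of collagen synthesis and cross-linking, 1 was higher on the lesion side on each day, and 1 was lower at day 14. Among all genes tested, 1.56%, 2.58% and 1.04% were higher and 0.0942%, 1.31% and 0.121% lower on the 3 days. A single called gene of a list is no result about that list. The higher one was Loxl2, a lysyl oxidase active on type IV collagen. It was at 4.26 ± 0.701 CPM in the lesion and 1.68 ± 0.238 in the contralateral pons at day 7, at 6.07 ± 0.466 and 1.21 ± 0.219 at day 14, and at 3.86 ± 0.761 and 1.19 ± 0.315 at day 30 (SD, n = 3). Its differences were 1.34 ± 0.20, 2.31 ± 0.20 and 1.70 ± 0.21 (adjusted p = 0.00012, 1.8e-08 and 1.8e-05). Adamts3, a procollagen N-proteinase, was lower at day 14 by 0.53 on the log2 scale (adjusted p = 0.045). Of 10 receptors tested, Itgb1, the shared beta chain of the collagen-binding integrins, was higher at days 7 and 14 (0.43 ± 0.06 and 0.39 ± 0.06, adjusted p = 5e-05 and 0.00015), and Lair1, an inhibitory collagen receptor of immune cells, at day 30 (0.55 ± 0.13, adjusted p = 0.034). Of 8 genes of collagen breakdown, the inhibitor Timp1 was higher on all 3 days (2.72 ± 0.26, 1.59 ± 0.27 and 2.15 ± 0.27) and the gelatinase Mmp9 lower on all 3 (-0.66 ± 0.16, -0.92 ± 0.15 and -0.67 ± 0.15). Of 18 matrix partners, the laminin chain Lama5 was higher at day 7 (0.47 ± 0.12, adjusted p = 0.034), and none passed at day 14 or 30.

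The next comparison set each operated group against the unoperated pons. Here more collagen genes passed as lower than as higher in each group, on both sides, and 22 of the 44 passed in no group. The share of all genes that passed in no group is not given here. Summed over the family, the unoperated pons held 828 ± 31.5 CPM and the contralateral pons of day 30 held 613 ± 39.0 (SD, n = 3), and every operated library, at 570 to 779 CPM, was below the lowest day 0 library at 795. In the contralateral pons 7, 6 and 12 of the 44 genes were lower at days 7, 14 and 30 and none higher, where 3.66%, 6.73% and 6.81% of all genes were lower and 6.84%, 9.09% and 9.32% higher. In the lesion pons 7, 12 and 9 were lower and 1, 1 and 0 higher, beside 4.32%, 7.03% and 9.69% of all genes lower and 8.14%, 9.78% and 12.7% higher. In either direction, 10.5%, 15.8% and 16.1% of all genes passed contralaterally and 12.5%, 16.8% and 22.4% in the lesion pons. The 6 comparisons share the day 0 libraries and are not independent of each other. The median collagen difference was -0.28, -0.14 and -0.27 in the contralateral and -0.24, -0.35 and -0.36 in the lesion pons, and over all genes it lay between -0.03 and -0.01. Without overlap with day 0, 10 to 19 of the 44 lay lower and 0 to 3 higher in a group. Among all genes 13.6% to 19.8% lay lower and 12.9% to 19.1% higher in this way. Day 0 was the deepest group. Its mitochondrial share was 3.05% to 3.60% of counts, against 3.62% to 4.45% at day 7, 2.81% to 4.76% at day 14 and 5.84% to 7.29% at day 30. The part of these differences was not tested, and age and sequencing run cannot be told apart from day.

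The main type IV chains fell in each group. Col4a1 was at 85.7, 72.2 and 78.2 CPM at day 0, and no operated library exceeded 61.1. It fell by 0.71 ± 0.07, 0.78 ± 0.07 and 1.06 ± 0.07 in the contralateral pons and by 0.39 ± 0.07, 0.45 ± 0.07 and 0.88 ± 0.07 in the lesion pons at days 7, 14 and 30 (largest adjusted p = 0.00041). Col4a2 was at 90.7, 83.9 and 88.2 CPM at day 0 and at most 78.6 in an operated library. Its differences were -0.54, -0.42 and -0.57 contralaterally and -0.42, -0.35 and -0.51 on the lesion side, each ± 0.07 (largest adjusted p = 0.001). The Col4a1 to Col4a2 ratio per kilobase was 0.871 ± 0.0423 in the unoperated pons, and by day 30 it was 0.621 ± 0.0173 contralaterally. The other type IV chains passed in 1 case, Col4a5 in the lesion pons at day 14. Col15a1, a multiplexin beneath vessels, was at 13.3, 16.6 and 14.9 CPM at day 0 and at 8.78 to 10.9 in every operated library, with differences between -0.55 and -0.60, each ± 0.10 (largest adjusted p = 0.00044). Col18a1, the source of endostatin, was at 19.8, 18.8 and 21.2 CPM at day 0 and fell by 0.56 ± 0.13 and 0.64 ± 0.13 contralaterally and by 0.57 ± 0.13 and 0.59 ± 0.13 on the lesion side at days 14 and 30 (largest adjusted p = 0.0033).

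Among the fibrillar genes Col3a1, which forms thin fibrils with type I collagen, fell most at days 14 and 30. It was at 26.3, 39.5 and 36.3 CPM at day 0. The day 14 libraries held 8.76, 10.5 and 12.6 CPM on the lesion side and 9.05, 16.0 and 17.8 on the other, and the day 30 libraries 12.0 to 15.9 on either side. All of these were below all day 0 values. The differences were -1.67 ± 0.28 and -1.25 ± 0.27 for lesion and contralateral pons at day 14 (adjusted p = 0.00059 and 0.0053), and -1.31 ± 0.27 and -1.28 ± 0.27 at day 30 (0.0027 and 0.0044). At day 7 it was at 16.9, 23.5 and 26.0 CPM on the lesion side and at 14.0, 28.1 and 26.1 on the other, and did not pass (-0.61 ± 0.26 and -0.58 ± 0.26, adjusted p = 0.16 and 0.2). When only the groups compared entered the fit, the contralateral difference at day 14 did not pass (adjusted p = 0.065). Col1a1 was at 35.2, 42.9 and 53.3 CPM at day 0 and at 16.7 to 26.1 CPM in all day 30 libraries, and it fell by 1.03 ± 0.26 contralaterally and 0.92 ± 0.26 on the lesion side then (adjusted p = 0.014 and 0.018). It also fell in the day 14 lesion pons by 0.84 ± 0.26 (adjusted p = 0.035). These Col1a1 calls were lost without single libraries. Day 0 replicate 3 ended each of them (adjusted p = 0.058, 0.075 and 0.13). The contralateral day 30 call was lost without contralateral replicate 3 (0.077), the lesion day 30 call without lesion replicate 2 or 3 (0.054 and 0.069), and the day 14 call without day 0 replicate 2 or lesion replicate 1 or 3 (0.07, 0.13 and 0.076). Col1a2, the second type I chain, did not pass against day 0 in any group, with differences from -0.07 ± 0.21 to -0.53 ± 0.21.

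Of 9 fibroblast markers, 1 at most was lower in any group (Slc6a13). Dcn, which encodes decorin, was at 42.6 to 61.0 CPM at day 0. In the day 30 lesion pons it was at 67.9 to 72.5 CPM, above all day 0 libraries. In the day 30 contralateral pons it was at 55.6 to 62.0 CPM, overlapping day 0. Igf2, the most abundant of the list, was at 234 to 240 CPM at day 0 and 152 to 209 at day 30, where the groups did not overlap, and it did not pass (-0.52 ± 0.28 contralateral and -0.42 ± 0.28 lesion, adjusted p = 0.25 and 0.33). Slc6a13 was at 28.2 to 33.5 CPM at day 0 and 16.4 to 24.1 at day 30. Ogn went the other way without overlap, at 13.0 to 15.6 CPM at day 0 and 18.4 to 25.7 at day 30. Lum was at 4.17 to 7.29 CPM at day 0, and at day 30 at 7.74 to 8.90 in the lesion and 7.19 to 8.81 in the contralateral pons. The summed fibroblast markers, to which Igf2 contributed most, were 418 to 456 CPM at day 0. At day 30 they were 378 to 448 in the lesion and 356 to 384 in the contralateral pons. At day 14 replicate 1 stood low on both sides, at 248 and 224 CPM against 379 to 523 in the other libraries of that day. The same libraries were lowest for Col1a1 (17.4 and 17.2 CPM), Col1a2 (44.8 and 39.1) and Col3a1 (8.76 and 9.05) among those of their side and day. Of the endothelial markers 2 to 5 of 9 were lower and 1 or 2 higher, and of the mural ones 1 to 5 of 9 were lower. Over all genes, 3.66% to 9.69% were lower and 6.84% to 12.7% higher in these groups. Pecam1 fell by 0.37 to 0.51 and Cldn5 by 0.96 to 1.22 in the day 14 and day 30 groups. Slco1a4, a transporter of the blood-brain barrier, was higher than at day 0 in each group, with differences from 0.35 ± 0.08 to 0.69 ± 0.07, and Itm2a was higher contralaterally at days 7 and 30 (0.27 ± 0.09 and 0.32 ± 0.09). Of 4 Schwann cell markers, 2 were lower in the day 14 lesion pons, where their sum was 51.9 to 57.2 CPM against 67.6 to 123 at day 0. The summed endothelial level was 426 to 481 CPM at day 0 and, contralaterally at day 30, 403 to 463. What these cells contributed to the lower collagen levels was not tested.

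**Figure D5:**
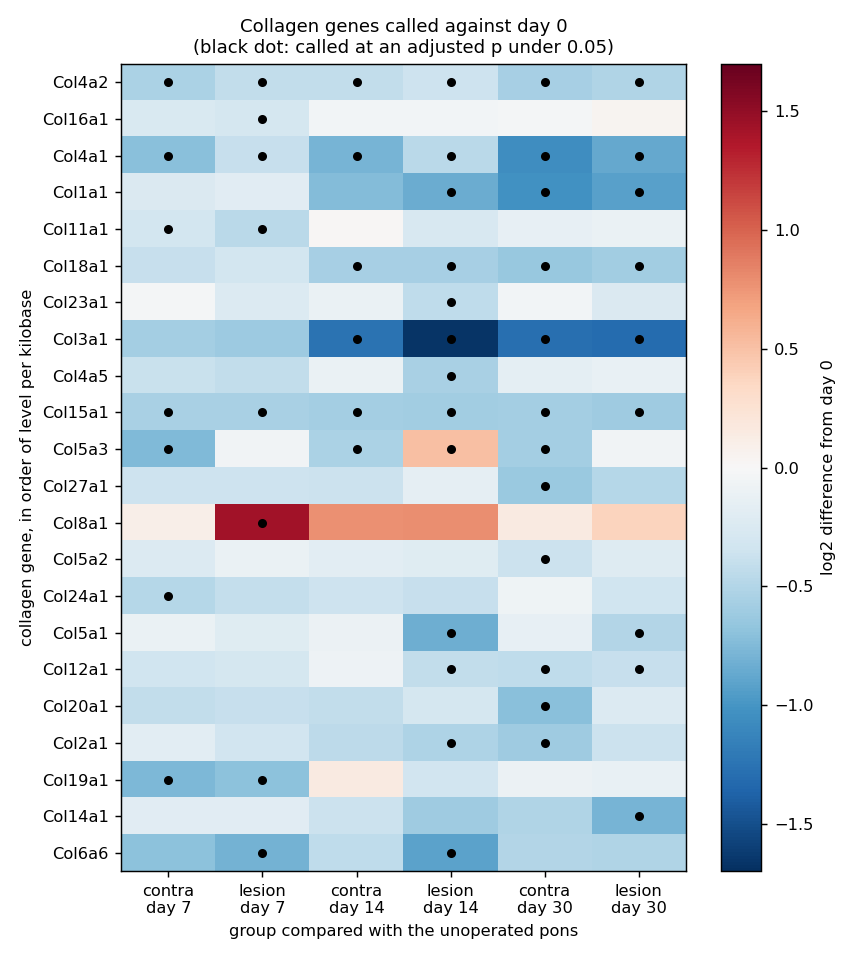
Log2 difference from day 0 (colour, blue lower and red higher) of the 22 collagen genes that passed in at least 1 operated group, with black dots where they passed. Col4a2, Col4a1 and Col15a1 carry dots in all columns, Col3a1 and Col18a1 in the 4 columns of days 14 and 30, and the red cells with dots are Col8a1 at day 7 and Col5a3 at day 14 in the lesion pons.

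In all, 22 genes passed against day 0 in at least 1 group, with 55 calls, of which 29 held without any 1 library. The matching counts over all genes are not given here, so these counts do not set collagen genes apart from others. These 29 belonged to 8 genes, Col4a1, Col4a2, Col15a1, Col18a1, Col3a1, Col5a1, Col5a3 and Col11a1. Col5a1 was lower in the lesion pons at days 14 and 30 (-0.83 ± 0.14 and -0.49 ± 0.14), and without lesion replicate 3 the latter had an adjusted p of 0.063. Col11a1, the minor fibrillar chain paired with Col11a2, was lower at day 7 on both sides (-0.46 ± 0.10 lesion, -0.32 ± 0.10 contralateral). The contralateral call had adjusted p = 0.12, 0.12, 0.17 and 0.26 without day 0 replicate 1 or 2 or contralateral replicate 1 or 2. Col8a1, the single gene higher in the day 7 lesion pons, was called at 1.43 ± 0.41 (adjusted p = 0.034). Its difference was 0.61 (adjusted p = 0.25) without lesion replicate 3, and the call was also lost without day 0 replicate 2 or 3 (0.12 and 0.1). The remaining 13 genes were each lower in 1 to 3 groups, each of these calls ended with at least 1 library left out, and Col1a1 above is one of them. Counts of calls dropped to 4 of 44 in the contralateral pons at day 7 without replicate 2 and to 5 at day 30 without replicate 3, and to 5 in the lesion pons at day 7 without day 0 replicate 3 and at day 30 without lesion replicate 3.

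In the type VI, network, FACIT and transmembrane classes, each call against day 0 was lost with at least 1 library left out. Of the type VI genes, Col6a1 and Col6a2 ran from 10.8 to 23.2 and from 7.75 to 22.4 CPM over all libraries and passed in no comparison. Of that class Col6a6 was called, lower in the lesion pons at days 7 and 14, and named after its values were seen. Among the transmembrane genes Col25a1, which neurons express, was at 32.0, 17.3 and 31.5 CPM in the day 14 lesion pons and at 39.3, 38.9 and 37.7 in the contralateral one. These groups did not overlap, but the difference of -0.53 ± 0.21 did not pass (adjusted p = 0.19). Col23a1, another transmembrane chain, was at 10.0, 9.53 and 8.54 CPM in the day 14 lesion pons and at 10.8, 14.2 and 12.8 at day 0, a difference of -0.43 ± 0.12 (adjusted p = 0.012) that was lost without day 0 replicate 2 or lesion replicate 3 (0.081 and 0.07). Col26a1 and Col28a1, which belong to no larger class, stayed at 3.45 to 6.49 and 0.398 to 1.57 CPM and passed nowhere.

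As a share of the summed collagen level per kilobase, the FACIT genes stood at 20.9% ± 0.907 at day 0, 26.8% ± 0.321 in the lesion and 26.3% ± 0.723 in the contralateral pons at day 30, and the transmembrane genes at 4.76% ± 0.524, 5.97% ± 0.487 and 6.71% ± 0.539 (SD, n = 3). These shares also move when other classes fall, and they were not tested. Among the FACIT genes, Col16a1 was the most even of all collagens, with a coefficient of variation of 11.4% over the 21 libraries, and it passed once, in the day 7 lesion pons against day 0 (-0.30 ± 0.09, adjusted p = 0.029). That call was lost without day 0 replicate 3, lesion replicate 2 or lesion replicate 3 (0.2, 0.057 and 0.15). Col19a1, a minor FACIT chain, stood at 4.17, 3.72 and 2.97 CPM at day 0. At day 7 it was at 2.65, 2.39 and 1.72 on the lesion side and at 2.21, 1.59 and 2.58 on the other, below day 0 on both sides. The differences were -0.69 ± 0.18 and -0.76 ± 0.19 (adjusted p = 0.011 and 0.0065), lost without day 0 replicate 1 or lesion replicate 3 for the lesion side (0.063 and 0.1) and without contralateral replicate 2 for the other (0.073). Col12a1, which binds to fibrils and was named after its values were seen, was lower in the lesion pons at days 14 and 30 and the contralateral pons at day 30 (-0.42 ± 0.12, -0.39 ± 0.12 and -0.44 ± 0.12, adjusted p = 0.012, 0.015 and 0.01). All 3 calls were lost without day 0 replicate 2 (0.067, 0.083 and 0.055), those of the lesion pons also without lesion replicate 2 (0.058 and 0.054), that of the day 30 lesion pons without lesion replicate 3 (0.067) and that of the contralateral pons without replicate 3 (0.06). Col20a1 was lower in the contralateral pons at day 30 (-0.71 ± 0.22, adjusted p = 0.026) and Col14a1, a fibril-bound collagen, in the lesion pons then (-0.79 ± 0.24, adjusted p = 0.02). Both calls were lost without single libraries, Col20a1 without day 0 replicate 2 or contralateral replicate 1 or 3 (0.13, 0.11 and 0.16), and Col14a1 without day 0 replicate 1 or lesion replicate 2 or 3 (0.054, 0.057 and 0.11).

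Of 33 genes of collagen synthesis, 8, 14 and 13 were lower in the contralateral and 7, 13 and 10 in the lesion pons at days 7, 14 and 30, and at most 3 were higher. Of all genes, 3.66%, 6.73% and 6.81% were lower contralaterally and 4.32%, 7.03% and 9.69% in the lesion pons. The shares of all genes that were higher were 6.84%, 9.09% and 9.32% contralaterally and 8.14%, 9.78% and 12.7% in the lesion pons. Serpinh1, the collagen chaperone, fell by 0.63 ± 0.10 and 0.60 ± 0.10 in the contralateral and lesion pons at day 14 (adjusted p = 7e-05 and 8.9e-05). Lox, the founding lysyl oxidase, fell by 0.94 ± 0.27 and 1.66 ± 0.28 in these groups (adjusted p = 0.015 and 1e-04). Creb3l1, a transcription factor known to drive collagen genes in bone, was lower in each group, from -0.65 ± 0.22 to -1.03 ± 0.22. The collagen receptor Ddr1 fell by 0.34 to 0.48 in these groups, and the membrane collagenase Mmp14 fell by 0.77 to 1.31. Nid1, which links laminin to type IV collagen, fell by 0.41 to 0.78. Ddr1, Mmp14 and Nid1 are single members of the lists of receptors, breakdown genes and matrix partners. Their values do not describe the other members of those lists, and how many of those were lower or higher than at day 0 is not given here. Loxl2 was higher than at day 0 in the lesion pons on every day (1.02 ± 0.18, 1.53 ± 0.18 and 0.87 ± 0.18) and lower contralaterally at days 14 and 30 (-0.78 ± 0.21 and -0.83 ± 0.22). Also higher was Pcolce2, an enhancer of procollagen C-proteinase, in the 4 groups of days 14 and 30 (0.40 to 0.45). These genes were named after their values were seen.

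Within the contralateral pons, where day 0 does not enter, no collagen gene passed between day 30 and day 7 or between day 30 and day 14 in edgeR, with 9 and 2 of 44 at an unadjusted p under 0.05. DESeq2 called 1 and 0, and limma-voom called 0 in both. Of all genes, 0.139% and 0.408% passed, 0.0987% and 0.175% higher and 0.0404% and 0.233% lower. Summed collagen levels were 670 ± 53.8 CPM at day 7, 665 ± 57.5 at day 14 and 613 ± 39.0 at day 30, and the differences between these means were of the size of the SD.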

How the data were processed

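Libraries were made with a stranded mRNA kit, per the labels' protocols. Bases were called with CASAVA 1.8.2, and reads aligned with Subread to GRCm38.p4 and counted per gene with featureCounts, per the submitters' processing notes and the series' design text. The strand setting is not given in the sources used here. The authors deposited raw counts with a Length column (other: bases per gene) and a voom matrix of log2 CPM. The deposited log2 values served only to check columns: each of the 21 count columns was most like the voom column of its own sample over 20295 genes with the same symbol. Column names give the opposite side at day 30, and the sample descriptions were followed.

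Of 45664 genes, 22294 had a summed count of at least 30. These were fitted in edgeR 4.0.16 (R 4.3.3; TMM factors, all 21 libraries with a coefficient for each group, glmQLFit with robust = TRUE and glmQLFTest) with Benjamini-Hochberg adjustment over all genes tested. To pass, or be called, a gene needed an adjusted p below 0.05. The fit recovered known changes on counts simulated for the day 7 comparison between sides, with the same spread set for every gene. Those changes were larger than that of Col4a1 and lay in well-counted genes. Smaller changes and the other comparisons were not covered. Tests are two-sided, and errors of log2 differences are SE. An exact test of 3 against 3 cannot go below 0.1. The labels do not say that libraries come from separate animals, so p-values measure the spread between libraries. The collagen genes, lists and tests were chosen with earlier results of these data known. Named were genes called between sides, the 2 highest of each class, the 4 largest called changes against day 0, and the called pathway genes with the smallest p, and others where said. Alternatives were DESeq2 1.42.0, its size factors, limma-voom 3.58.1, 2 filters, fits of single comparisons, a replicate block and each library left out. After group means were removed, lesion and contralateral libraries of the same number correlated at 0.167 to 0.273 at day 7 and 0.194 to 0.215 at day 30 over 15480 genes of at least 1 CPM, and over all 22294 genes at 0.0497 to 0.0952. The labels do not state a shared animal. The values reported are without a replicate block, which changed no collagen call between sides at days 7 and 30.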

Additional observations from a re-analysis of the deposited data

How the results depend on the processing

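The count of collagen genes called between sides at day 7 was 2, and it was 1 with limma-voom and 0 to 2 with 1 library left out. It was 0 without lesion replicate 1, lesion replicate 2 or contralateral replicate 1, and 1 without contralateral replicate 2 or 3. At day 14 the count of 3 became 7 (2 higher, 5 lower) with the replicate block, and 2 to 3 with 1 library left out. Same-number correlations that day were 0.269, -0.00345 and 0.166 for replicates 1, 2 and 3. Lesion replicate 2 was most like contralateral replicate 3 (0.0974). Because of replicate 2 the numbers were not taken to pair that day, and the labels do not settle it. At day 30 the count of 0 became 1, Col5a3, with every counted gene kept or with only the compared groups fitted. The replicate block changed no other call between sides or between days, and no paired analysis was possible against day 0 or between days because these are different mice. Against day 0, leaving out 1 library gave 4 to 8 calls for the contralateral pons at day 7 (main count 7), 5 to 9 for the lesion pons at day 7 (8), 5 to 12 for the contralateral (12) and 5 to 10 for the lesion pons (9) at day 30. Between contralateral days 30 and 7, 1 gene was called with DESeq2, with every gene kept and with only these groups, and 0 to 1 with 1 library left out. Between days 30 and 14, 1 was called with every gene kept and 2 with only these groups. Interactions gave 0 in all 19 alternatives each. Some differences between sides turned sign with 1 library left out: at day 7 Col5a1 ran from -0.25 to 0.065 (positive without contralateral replicate 2) and Col8a2 from -0.0032 (without lesion replicate 3) to 1.99, and at day 14 Col8a1 from -0.20 to 0.23, Col8a2 from -0.79 to 0.041 (positive without contralateral replicate 3) and Col9a3 from -0.14 to 0.15. Col9a3 was also 0.0023 with limma-voom and 0.0050 with every gene kept, against -0.0015. Apart from the left-out libraries named, the cause was not tested. The 5 genes of 0.1 to 1 CPM and Col10a1 rest on few counts.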
